A study of Mus musculus with 18 samples.

Results

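The insulin-like growth factor (IGF) axis was described here through 9 genes: the ligand gene Igf1, the receptor genes Igf1r and Igf2r, and the binding protein genes Igfbp2, Igfbp3, Igfbp4, Igfbp5, Igfbp6 and Igfbp7. The 9 genes were taken by symbol from the 38243 genes counted in each of 18 RNA-seq libraries. The libraries came from 6 female C57BL/6 embryos (C57BL6/J in the study's methods) at embryonic day 16.5, of which 3 carried the heterozygous Apert syndrome allele Fgfr2+/S252W and 3 were unaffected Fgfr2+/+ littermates. From each embryo, mandibular bone, Meckel's cartilage (MC) and mandibular condylar cartilage were cut from frozen head sections by laser capture microdissection, so that each of the 6 groups of genotype and tissue held 3 libraries. The comparisons ask how transcripts of the axis are distributed over the bone and the cartilages of the lower jaw, and whether their levels differ between the genotypes.

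As background, IGF1 binds the tyrosine kinase receptor encoded by Igf1r and promotes growth of bone and cartilage, both as a circulating hormone and as a locally made factor. The receptor encoded by Igf2r carries mannose 6-phosphate-tagged enzymes to lysosomes and removes IGF2 from the cell surface. The IGF binding proteins hold IGF1 and IGF2 outside the cell, where they can prolong the life of the ligand, keep it from the receptor or, once cleaved by proteases, release it. IGFBP5 binds to bone matrix, and IGFBP7 binds IGFs with low affinity.

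The libraries held 8218548 to 15585778 counted fragments. Levels are given as normalized CPM (fragment counts as CPM, after TMM scaling between libraries) and, where genes are compared with each other, as FPKM (the same value per kilobase of exon). All 9 genes were counted, and 8 passed the expression filter of more than 1 FPKM in at least 50% of the libraries. Igfbp6 did not pass, and none of its 18 libraries held more than 20 fragments. Fgfr2, the gene that carries the allele, had 1171 to 6061 fragments in every library, and since its counts do not separate the alleles they do not check the genotype labels. Several libraries stood apart in genes that mark other tissues. Fgfr2+/+ bone replicates 1 and 2 held 97.1 and 102.5 CPM of Myh3, an embryonic myosin of skeletal muscle, against 9.60 CPM in Fgfr2+/+ bone replicate 3 and 0.102 to 8.99 CPM in Fgfr2+/S252W bone. The same 2 bone libraries had 36.0% and 34.8% of their fragments in mitochondrial genes, against 20.4% in Fgfr2+/+ bone replicate 3 and 23.4% to 23.6% in Fgfr2+/S252W bone. In MC, Col2a1, the main collagen of cartilage, was at 212.3 CPM in Fgfr2+/+ replicate 1 and at 1563 to 7201 CPM in the other 5 libraries, all below the 19339 to 25475 CPM of condylar cartilage. That MC library also had the highest Ibsp of MC, an osteoblast gene, at 230.1 CPM against 1.87 to 9.63 CPM, while all condylar libraries held 2117 to 8670 CPM of Ibsp beside their high Col2a1. In the fit of all 18 libraries, genotype p-values rest on a spread between embryos that the 6 groups of 3 share. A p for bone thus also draws on the spread of the cartilage libraries. P-values between tissues rest on the spread that remains with the embryo as a block. Because these are bulk samples, fewer cells of a type and less RNA per cell cannot be told apart.

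The 250 bases before the transcription start of the members were read from RefSeq on GRCm38.p6 as the stretch of sequence nearest to the regulation of these transcripts, and all 9 members had an entry. The letters of 4 members are shown because their levels fell into different patterns over the tissues: Igf1r was highest in condylar cartilage, Igf2r was near level, and Igfbp4 and Igfbp5 were lowest in condylar cartilage. Sequences run 5′ to 3′ along the gene, and capitals mark the letters of a TATA box, a GC box or a CCAAT box on either strand. The Igf1 window lay over an exon of another Igf1 transcript and is not shown, and the Igfbp5 stretch ends where the annotation's first exon begins.
Igf1r, chr7:67952007-67952256, plus strand: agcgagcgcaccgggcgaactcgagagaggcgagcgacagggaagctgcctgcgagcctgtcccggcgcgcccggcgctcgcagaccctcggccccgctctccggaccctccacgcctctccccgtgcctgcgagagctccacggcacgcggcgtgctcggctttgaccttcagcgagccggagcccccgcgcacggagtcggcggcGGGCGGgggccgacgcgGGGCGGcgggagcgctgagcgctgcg
Igf2r, chr17:12769707-12769956, minus strand: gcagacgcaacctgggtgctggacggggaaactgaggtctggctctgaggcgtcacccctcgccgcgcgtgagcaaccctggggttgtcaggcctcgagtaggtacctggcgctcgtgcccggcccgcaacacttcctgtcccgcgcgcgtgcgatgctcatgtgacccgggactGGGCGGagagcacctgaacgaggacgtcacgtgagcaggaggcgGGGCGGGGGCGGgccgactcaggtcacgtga
Igfbp4, chr11:99040994-99041243, plus strand: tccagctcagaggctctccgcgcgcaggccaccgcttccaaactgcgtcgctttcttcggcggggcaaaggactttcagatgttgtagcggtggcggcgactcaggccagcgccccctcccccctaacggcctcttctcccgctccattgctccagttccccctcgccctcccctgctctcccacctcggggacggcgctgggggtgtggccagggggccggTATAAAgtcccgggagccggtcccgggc
Igfbp5, chr1:72874885-72875115, minus strand: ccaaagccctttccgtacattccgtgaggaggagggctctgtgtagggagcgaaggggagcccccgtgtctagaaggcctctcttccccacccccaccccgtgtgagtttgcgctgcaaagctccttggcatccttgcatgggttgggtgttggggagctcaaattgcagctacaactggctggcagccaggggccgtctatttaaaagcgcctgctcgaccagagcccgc

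GGGCGG, the letters of a GC box, occurred 2 times before Igf1r, at 43 and 26 bases from the start, and 3 times before Igf2r, at 75, 31 and 25 bases. TATAAA, the letters of a TATA box, began 28 bases before the start of Igfbp4, and the Igfbp5 stretch held none of the 3 motifs. Over all 32851 promoter entries of the same length, 12.4% held the TATA box letters on either strand, 32.7% those of the GC box, and 33.8% the letters CCAAT. The windows were 77.6% G and C for Igf1r, 69.2% for Igf2r, 69.2% for Igfbp4 and 58.8% for Igfbp5, against a median of 52.4% over all entries. A match of letters does not show that a factor binds there.

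Igf1 was highest in MC and lowest in condylar cartilage, where some libraries held under 10 fragments. The gene (ENSMUSG00000020053, mm10 chromosome 10, 87858265 to 87937042, plus strand) had 228.0, 932.2 and 759.8 CPM in the 3 Fgfr2+/+ MC libraries and 749.6, 1099 and 958.3 CPM in the 3 Fgfr2+/S252W MC libraries. In bone the values were 145.3, 109.7 and 74.3 CPM for Fgfr2+/+ and 40.3, 40.0 and 53.2 CPM for Fgfr2+/S252W. In condylar cartilage they were 0.526, 6.90 and 53.1 CPM for Fgfr2+/+ and 0.268, 4.04 and 1.28 CPM for Fgfr2+/S252W, which rest on 7, 83 and 588 and on 4, 47 and 10 fragments. Every MC library lay above every bone library, while the highest condylar library overlapped the bone range. The lowest MC value was that of Fgfr2+/+ replicate 1, the library with low Col2a1 and high Ibsp. The highest condylar value was that of Fgfr2+/+ replicate 3, which also had the highest condylar level of Aspn, a fibroblast and perichondrium gene, at 15.7 CPM against 0.402 to 3.72 CPM, and of Myh3, at 38.1 CPM against 0 to 17.4 CPM.

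**Figure D1:**
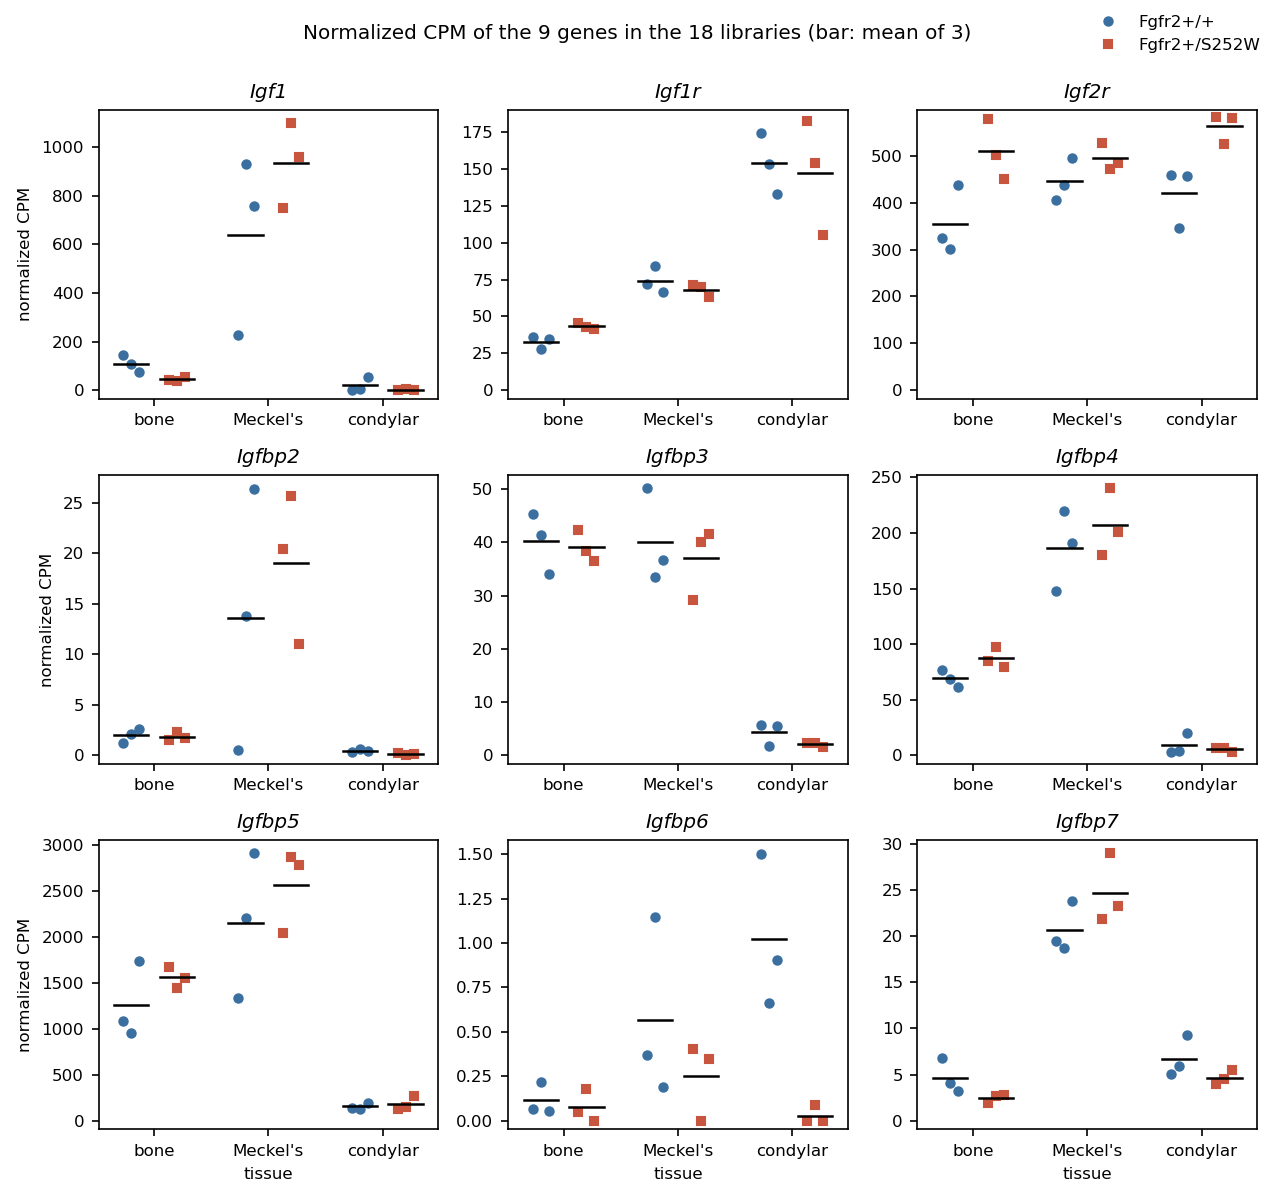
Normalized CPM (y axis, linear from 0, its own scale in each panel) of each of the 9 genes in bone, Meckel's cartilage and condylar cartilage (x axis), with 1 point per library, circles for Fgfr2+/+, squares for Fgfr2+/S252W and a bar at the mean of 3. Igf1, Igfbp2, Igfbp4, Igfbp5 and Igfbp7 were highest in Meckel's cartilage, Igf1r was highest in condylar cartilage, and Igf2r lay between 300.3 and 583.2 CPM in all 18 libraries.

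The receptor genes did not share the pattern of the ligand. Igf1r (ENSMUSG00000005533, chromosome 7, 67952859 to 68226780, plus strand) was at 28.2 to 45.4 CPM in bone, 62.8 to 84.0 CPM in MC and 104.9 to 182.2 CPM in condylar cartilage, and the 6 libraries of each tissue did not overlap with those of another. Its highest tissue was therefore the one with the lowest Igf1. Igf2r (ENSMUSG00000023830, chromosome 17, 12682406 to 12769664, minus strand) was at 300.3 to 577.5 CPM in bone, 405.4 to 526.6 CPM in MC and 346.2 to 583.2 CPM in condylar cartilage, with wide overlap. Per length, median Igf2r was 48.6, 52.3 and 53.8 FPKM in bone, MC and condylar cartilage, above median Igf1r at 8.64, 15.8 and 34.2 FPKM. The imprinted antisense gene Airn lies over Igf2r on the opposite strand and shares 0 annotated exonic bases with it. Any unspliced Airn fragments over an Igf2r exon would still be counted as Igf2r without regard to strand. Their part in the Igf2r counts was not tested.

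Among the binding proteins, Igfbp5 was by far the most abundant transcript in every library. Igfbp5 (ENSMUSG00000026185, chromosome 1, 72857932 to 72874884, minus strand) was at 1331 to 2911 CPM in MC, 952.0 to 1733 CPM in bone and 126.7 to 272.2 CPM in condylar cartilage. Its neighbour Igfbp2 (ENSMUSG00000039323, chromosome 1, 72824503 to 72852474, plus strand), whose 3′ end is 5457 bases from that of Igfbp5, was a low transcript. Igfbp2 was at 0.558, 13.8 and 26.4 CPM in Fgfr2+/+ MC and at 20.4, 25.7 and 11.03 CPM in Fgfr2+/S252W MC, against 1.27 to 2.65 CPM in bone and 0.0860 to 0.665 CPM in condylar cartilage. The lowest MC library was again Fgfr2+/+ replicate 1, with 6 fragments, which lay below every bone library and within the condylar range.

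Igfbp4 (ENSMUSG00000017493, chromosome 11, 99041244 to 99054392, plus strand), which encodes an inhibitor of IGF action, was at 147.6 to 240.0 CPM in MC, 61.8 to 97.3 CPM in bone and 3.01 to 20.0 CPM in condylar cartilage. Igfbp3 (ENSMUSG00000020427, chromosome 11, 7206086 to 7213923, minus strand), the main carrier of IGFs in serum, was at like levels in bone and MC, 34.0 to 45.3 and 29.3 to 50.2 CPM, and at 1.54 to 5.79 CPM in condylar cartilage. For both genes the condylar libraries lay below all others. Igfbp7 (ENSMUSG00000036256, chromosome 5, 77349240 to 77408045, minus strand) had an order of its own, at 18.7 to 29.0 CPM in MC, 4.02 to 9.29 CPM in condylar cartilage and 1.95 to 6.76 CPM in bone, and 7.01% of its exonic bases are shared with Polr2b on the opposite strand, where unstranded counting cannot tell the genes apart. Igfbp6 (ENSMUSG00000023046, chromosome 15, 102144362 to 102149511, plus strand) was at 0 to 1.5 CPM over the 18 libraries.

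Tested between tissues, with both genotypes given equal weight and the embryo as a block in limma, 6 of the 8 members that passed the filter were lower in bone than in MC and 0 were higher. Of all 11469 genes tested, 49.3% were called in this comparison and 24.6% were lower in bone. The median log2 fold change was -1.12 over the 8 members and -0.0024 over all genes tested. Igf1 differed most, with a log2 fold change of -3.46 ± 0.36 (SE; 11-fold lower in bone, adjusted p = 9.1e-07), followed by Igfbp2 at -2.81 ± 0.38 (adjusted p = 1.55e-05) and Igfbp7 at -2.76 ± 0.23 (adjusted p = 8.87e-08). Igfbp4, Igf1r and Igfbp5 were lower by smaller amounts, at -1.33 ± 0.19, -0.90 ± 0.13 and -0.73 ± 0.15. Igf2r at -0.15 ± 0.10 (95% interval -0.37 to 0.06) and Igfbp3 at 0.05 ± 0.16 (-0.29 to 0.38) did not pass the test. The libraries of bone and MC did not overlap for 4 members, Igf1, Igf1r, Igfbp4 and Igfbp7, against 24.9% of all genes.

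Between bone and condylar cartilage, 7 of the 8 members were called, 5 higher and 2 lower in bone, where 41.3% of all genes were called, 21.6% higher and 19.6% lower. Igf1 was 16.6-fold higher in bone (log2 4.05 ± 0.69, adjusted p = 0.000138), Igfbp3 was 13.0-fold higher (3.70 ± 0.24, adjusted p = 2.75e-09), Igfbp4 was 12.3-fold higher (3.62 ± 0.26, adjusted p = 9.98e-09) and Igfbp5 was 8.49-fold higher (3.09 ± 0.15, adjusted p = 1.15e-10). Igfbp2 was higher by 2.55 ± 0.55 on counts of 1 to 8 fragments per condylar library, so the size of this fold is uncertain. Condylar libraries held 4 to 588 fragments of Igf1 and 12 to 77 of Igfbp3, which both passed the filter through bone and MC. The Igf1 fold was 8.97 in Fgfr2+/+ and 30.8 in Fgfr2+/S252W embryos alone, so its size is uncertain as well. Igf1r was 3.94-fold lower in bone (-1.98 ± 0.13, adjusted p = 3.47e-09), and Igfbp7 was lower by a little (-0.73 ± 0.23, adjusted p = 0.0162). Igf2r at -0.20 ± 0.10 (95% interval -0.41 to 0.01) did not pass the test. The Igfbp7 call was lost when Fgfr2+/S252W bone replicate 1, Fgfr2+/+ bone replicate 3 or Fgfr2+/+ condylar replicate 3 was left out (adjusted p = 0.0518, 0.0849 and 0.0687). The log2 fold change of Igf1 was 5.06 without Fgfr2+/+ condylar replicate 3. The libraries did not overlap for 5 members, against 31.9% of all genes. The median log2 fold change was 2.82 over the members and -0.0027 over all genes.

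Between condylar cartilage and MC, 7 of the 8 members were called, 1 higher and 6 lower in condylar cartilage, where 54.4% of all genes were called, 27.1% higher and 27.4% lower. By limma, Igf1 was 183-fold lower in condylar cartilage (log2 -7.52 ± 0.79, adjusted p = 4.84e-07, and log2 -8.49 without Fgfr2+/+ condylar replicate 3), Igfbp4 was 30.9-fold lower (-4.95 ± 0.30, adjusted p = 1.07e-09), Igfbp5 was 14.1-fold lower (-3.81 ± 0.15, adjusted p = 1.39e-11) and Igfbp3 was 12.6-fold lower (-3.65 ± 0.27, adjusted p = 9.1e-09). Igf1 and Igfbp3 passed the filter through bone and MC and held 4 to 588 and 12 to 77 fragments per condylar library. The Igf1 fold was 51.1 in Fgfr2+/+ and 654 in Fgfr2+/S252W embryos alone, so its size is uncertain. Igfbp7 was lower, at log2 -2.03 ± 0.23. Igfbp2 was called lower at -5.36 ± 0.62, but its condylar libraries held 1 to 8 fragments and it passed the filter through bone and MC, so the size of this fold is uncertain. Igf1r was 2.11-fold higher (1.08 ± 0.13, adjusted p = 1.68e-06), and Igf2r at 0.05 ± 0.10 (95% interval -0.16 to 0.26) did not pass the test. The libraries did not overlap for 6 members, against 29.5% of all genes, and the median log2 fold change was -3.73 over the members and -0.0077 over all genes. These 3 tissue comparisons share libraries and are not independent of each other.

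The markers of most cell types also differed between the tissues. The chondrocyte markers summed to 194.1 to 531.6 CPM in bone, 407.4 to 9745 CPM in MC and 24339 to 31824 CPM in condylar cartilage. The osteoblast markers summed to 13976 to 32284 CPM in bone, 1579 to 4018 CPM in MC and 4934 to 18704 CPM in condylar cartilage, and the hypertrophic and condylar chondrocyte markers to 340.8 to 560.6, 34.7 to 150.9 and 3316 to 6293 CPM. Within the latter list Prg4, unlike Col10a1, Ihh and Panx3, was mostly higher in MC (1.02 to 17.8 CPM) than in condylar cartilage (0.201 to 2.31 CPM). The osteoclast markers summed to 783.6 to 2054 CPM in bone, 57.0 to 213.6 CPM in MC and 11.4 to 27.8 CPM in condylar cartilage, and the macrophage markers to 121.8 to 269.9, 36.3 to 130.1 and 3.88 to 13.9 CPM. The endothelium markers summed to 190.4 to 255.9 CPM in bone, 21.6 to 95.9 CPM in MC and 6.23 to 25.2 CPM in condylar cartilage. The fibroblast and perichondrium markers were at like sums in bone and MC, 2062 to 3494 and 2218 to 3382 CPM, and at 645.6 to 919.1 CPM in condylar cartilage. The part of these cell types in the tissue differences of the members was not tested.

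**Figure D2:**
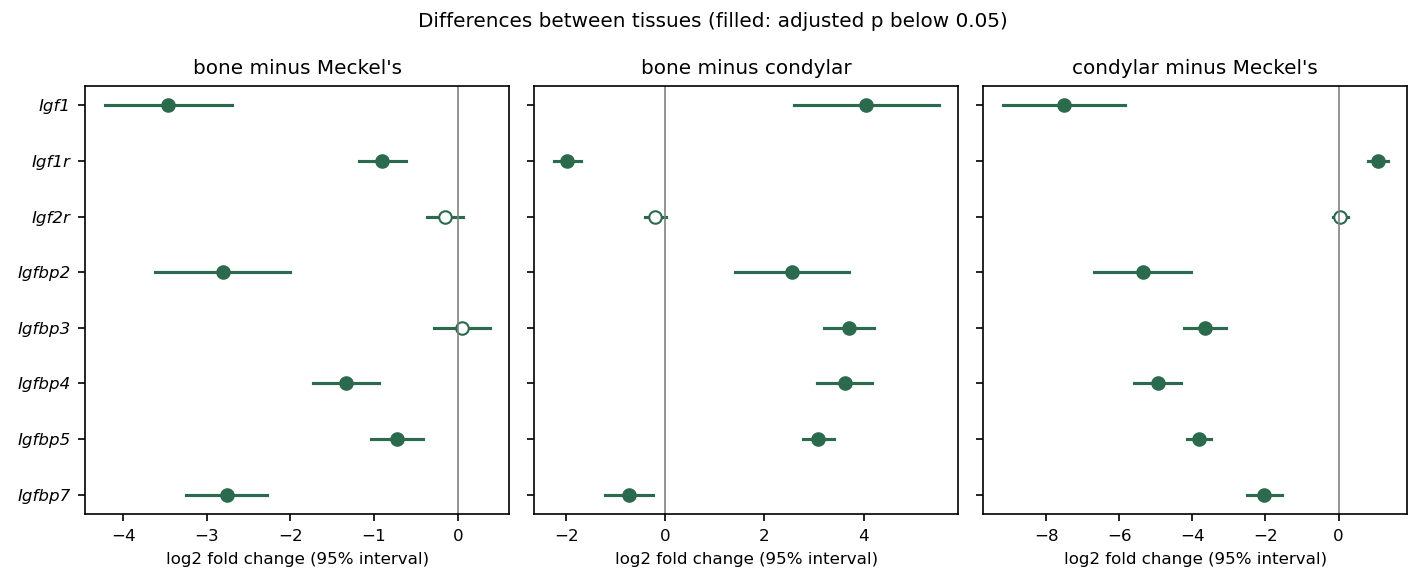
Log2 fold change between tissues (x axis, points, with 95% intervals as lines) of the 8 members that passed the filter (y axis), filled where the limma adjusted p was below 0.05. In the comparison of condylar with Meckel's cartilage, Igf1 and the 5 binding protein genes lie between -7.52 and -2.03, Igf1r is the only called gene on the right at 1.08, and Igf2r lies between -0.20 and 0.05 over the 3 panels.

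The order of the 3 tissue means was the same in both genotypes for every member other than Igf2r and Igfbp6. Within the 3 Fgfr2+/+ embryos alone, the log2 fold change of Igf1 was -2.51 ± 0.50 for bone against MC (limma adjusted p = 0.00135) and -5.68 ± 0.80 for condylar cartilage against MC (adjusted p = 2.6e-05). Within the 3 Fgfr2+/S252W embryos alone the same values were -4.41 ± 0.51 (adjusted p = 9.05e-06) and -9.35 ± 1.37 (adjusted p = 4.41e-05, limma). The condylar libraries held 7, 83 and 588 Igf1 fragments in Fgfr2+/+ and 4, 47 and 10 in Fgfr2+/S252W, so the sizes of the condylar values are uncertain. For Igf1r the higher level in condylar cartilage than in MC was 1.06 ± 0.18 and 1.09 ± 0.18 in the 2 genotypes. The bone against condylar calls of Igfbp7 were lost in each genotype alone (adjusted p = 0.19 and 0.0633), and that of Igfbp2 was lost in Fgfr2+/+ alone (adjusted p = 0.0569).

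Summed over the 6 binding proteins, the median level per length was 507.1 FPKM in MC (292.1 to 593.9), 288.4 FPKM in bone (194.2 to 319.7) and 31.5 FPKM in condylar cartilage (27.0 to 51.3). Igfbp5 made up 75.9% to 83.5% of that sum in MC, 81.6% to 90.3% in bone and 67.1% to 88.3% in condylar cartilage. Igfbp4 held 8.35% to 12.9% in MC, 4.93% to 8.99% in bone and 1.66% to 10.7% in condylar cartilage, with overlap. Igfbp7 held 3.36% to 5.51% in MC, 8.86% to 16.5% in condylar cartilage and 0.507% to 2.51% in bone. Set against the ligand, the libraries held a median of 5.69 FPKM of binding protein transcripts per FPKM of Igf1 in MC, 48.7 in bone and 236.1 in condylar cartilage. The condylar ratio ranged from 8.90 to 998.1, and its lowest value was that of Fgfr2+/+ replicate 3, with 588 Igf1 fragments against 4 to 83 in the other condylar libraries.

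**Figure D3:**
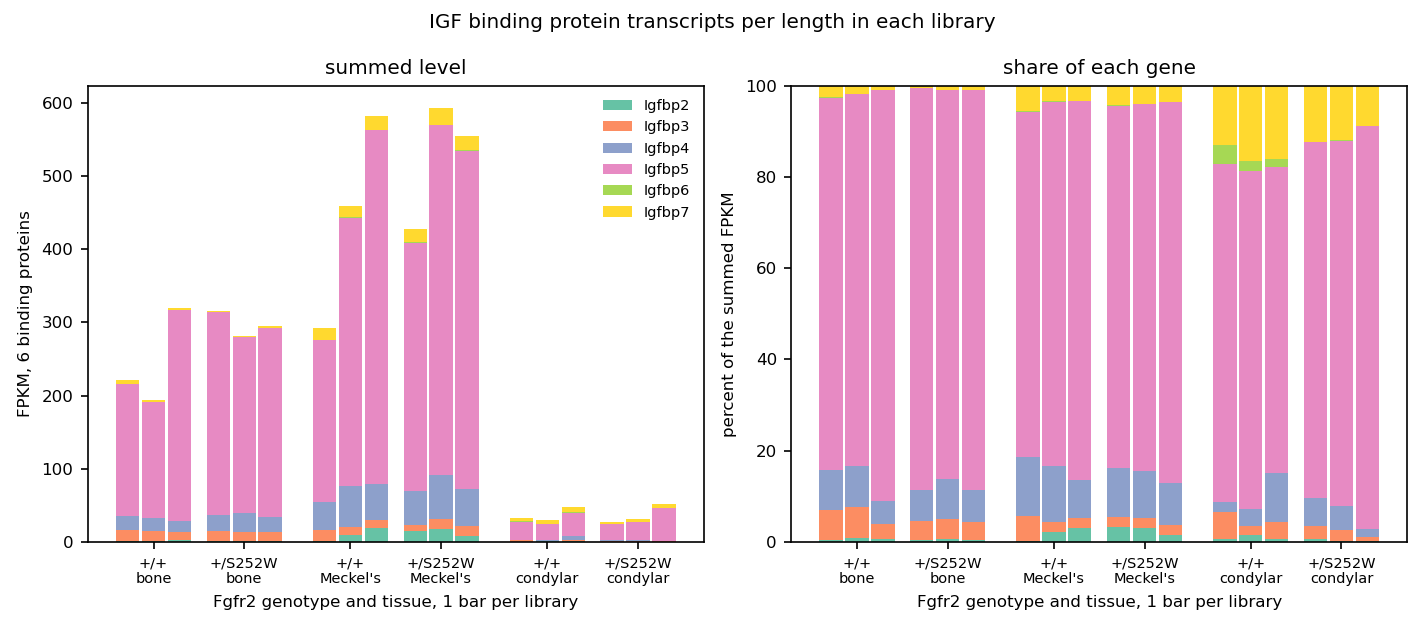
FPKM of the 6 binding protein genes stacked in each of the 18 libraries (left, y axis from 0) and the percent of their sum held by each (right), with 3 bars for each genotype and tissue. Igfbp5 takes most of every bar, the condylar bars are the lowest, and the share of Igfbp7 reaches 16.5% in condylar cartilage against at most 2.51% in bone.

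Between the genotypes, no member passed the test in any tissue at an adjusted p below 0.05 in the limma fit of all 18 libraries. In bone, 0 of 8 members and 0.0872% of all genes (10 of 11469) were called. Unadjusted p was below 0.05 for 4 members and for 932 genes. The 3 Fgfr2+/S252W and 3 Fgfr2+/+ bone libraries did not overlap for 5 of 8 members, where 20.4% of all genes did not overlap. Of the 5, 3 were higher in Fgfr2+/S252W, Igf1r, Igf2r and Igfbp4, against 10.7% of all genes, and 2 were lower, Igf1 and Igfbp7, against 9.7%.

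Igf2r had the smallest p in bone. Its values were 323.9, 300.3 and 438.0 CPM in Fgfr2+/+ and 577.5, 501.7 and 449.6 CPM in Fgfr2+/S252W bone, with a log2 fold change of 0.54 ± 0.15 (95% interval 0.22 to 0.85, limma adjusted p = 0.263). Igf1r was at 35.8, 28.2 and 34.7 against 45.4, 43.2 and 41.7 CPM (0.40 ± 0.19, adjusted p = 0.614), and Igfbp4 was at 77.2, 68.5 and 61.8 against 84.9, 97.3 and 79.7 CPM (0.34 ± 0.25, adjusted p = 0.811). Igf1 was among the genes that the study itself picked out from these libraries, so its direction here is not independent evidence. Its bone values given above corresponded to a log2 fold change of -1.26 ± 0.58 (95% interval -2.47 to -0.05, adjusted p = 0.605). Igfbp7 was at 6.76, 4.03 and 3.22 against 1.95, 2.70 and 2.78 CPM, on 38 to 101 fragments per library (-0.84 ± 0.34, adjusted p = 0.537, and -0.54 without Fgfr2+/+ replicate 1). Igfbp5 at 0.36 ± 0.28 (0.18 without Fgfr2+/+ replicate 2 and 0.61 without Fgfr2+/+ replicate 3), Igfbp2 at -0.09 ± 0.97 and Igfbp3 at -0.03 ± 0.20 overlapped between the genotypes. The median over the 8 members was 0.16, and over all genes -0.00074.

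**Figure D4:**
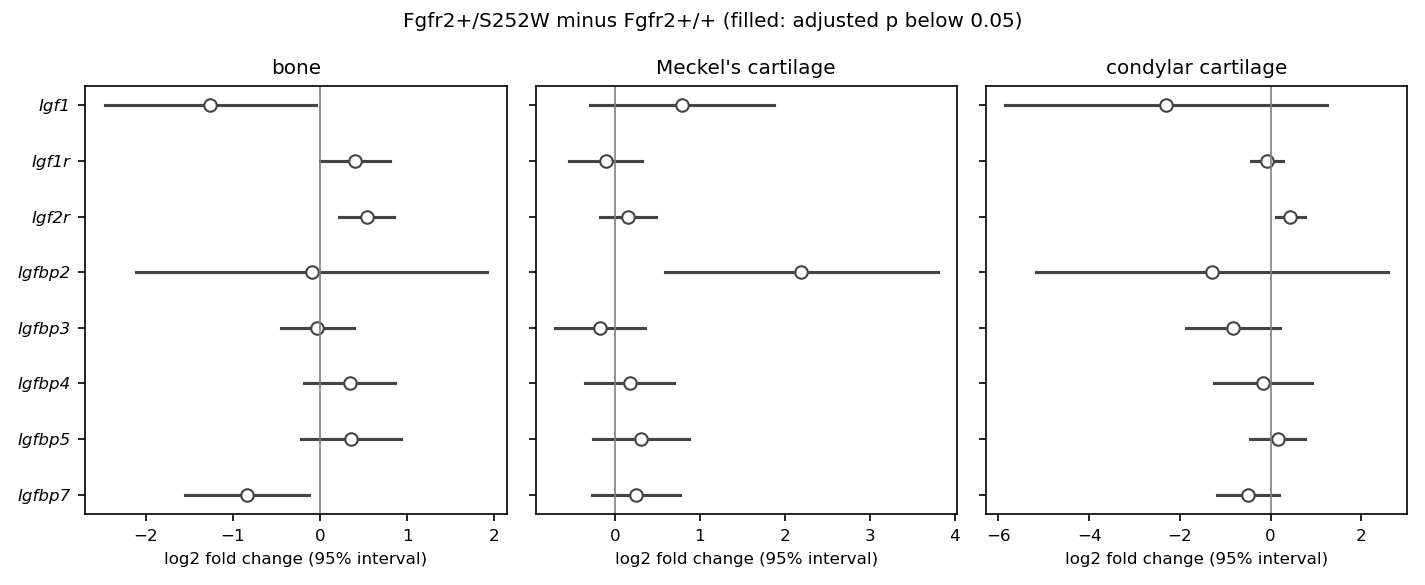
Log2 fold change of Fgfr2+/S252W minus Fgfr2+/+ (x axis, points, with 95% intervals as lines) of the 8 members that passed the filter (y axis) in bone, Meckel's cartilage and condylar cartilage, each on its own x scale. All points are open because none had a limma adjusted p below 0.05, and the widest intervals belong to Igf1 and Igfbp2 in condylar cartilage.

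The calls in bone differed between the fits. By edgeR 4 of 11469 genes were called and by DESeq2 16 of 11454, none of them a member. The unadjusted p of Igf1 was 0.125 by edgeR and 0.215 by DESeq2. In limma on the 12 libraries of bone and MC, Igf1 was at -1.26 ± 0.42 (adjusted p = 0.416). With the 6 bone libraries fitted alone, Igf1 was called (log2 fold change -1.27 ± 0.21, adjusted p = 0.0187) as 1 of 141 called genes among 12322, or 1.14%. With the replicate number added as a block to those 6 libraries, Igf1 was again the only member called (adjusted p = 0.000727), at 4.5% of all genes. With a quality weight for each library, Igf1 (adjusted p = 0.0281) and Igf2r (adjusted p = 0.00679) were called, at 5.14% of all genes. Without Fgfr2+/+ bone replicate 3, Igf2r was called in the fit of the other 17 libraries (adjusted p = 0.0365), at 0.811% of all genes, and Igf1, Igf2r, Igfbp5 and Igfbp7 were called in the fit of the 5 bone libraries left (adjusted p = 0.000342, 0.00581, 0.00853 and 0.0365), at 11.4% of all genes. The only Fgfr2+/+ bone libraries left in those fits were replicates 1 and 2, which held the muscle transcripts and the high mitochondrial share. Leaving out each of the other bone libraries from the 6 gave an adjusted p for Igf1 of 0.0178 without Fgfr2+/S252W replicate 3, 0.078 without Fgfr2+/+ replicate 1, 0.075 without Fgfr2+/+ replicate 2, and 0.135 and 0.136 without Fgfr2+/S252W replicates 1 and 2. With 3 libraries against 3, an exact permutation test cannot give a p below 0.1.

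Genes of other cell types moved with these bone differences. The 6 skeletal muscle markers summed to 222.1, 217.7 and 25.4 CPM in Fgfr2+/+ bone and to 1.28, 8.07 and 26.8 CPM in Fgfr2+/S252W bone, with 3 of the 6 lower in every Fgfr2+/S252W library, and Ckm was at 0 in Fgfr2+/S252W replicate 1. The 6 fibroblast and perichondrium markers summed to 3408, 3494 and 2467 CPM against 2337, 2287 and 2062 CPM, with 4 of the 6 lower in every Fgfr2+/S252W library and Dcn higher in every one, at 389.7 to 438.4 against 440.0 to 479.4 CPM. Aspn was among the 4 that were lower, at 275.5, 280.6 and 124.6 CPM against 70.0, 71.9 and 75.9 CPM. The 5 red blood cell markers summed to 1250 to 1503 CPM against 313.2 to 595.2 CPM, all 5 lower in Fgfr2+/S252W, and the 5 smooth muscle and pericyte markers to 69.2 to 130.8 CPM against 50.3 to 54.2 CPM, 3 of 5 lower. Of the 6 endothelium markers, Emcn and Egfl7 were lower in every Fgfr2+/S252W library, and of the 7 osteoblast markers Ibsp was lower and Bglap and Dmp1 were higher. Of the 6 chondrocyte markers Acan was lower and Col2a1 and Sox9 were higher, and of the 4 hypertrophic and condylar chondrocyte markers Panx3 was lower. All 6 osteoclast markers were higher in Fgfr2+/S252W, with sums of 783.6 to 1022 CPM against 1478 to 2054 CPM, and the highest sum was in the library with the highest Igf2r. The 7 macrophage markers were split, as C1qa, C1qb, C1qc, Mrc1 and Adgre1 were lower in every Fgfr2+/S252W library and Cd68 and Csf1r were higher. Because Cd68 and Csf1r held most of the counts, the macrophage sum was 121.8 to 146.1 CPM against 196.3 to 269.9 CPM. The part of these cell types in the differences of Igf1, Igfbp7, Igf1r and Igf2r was not tested.

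**Figure D5:**
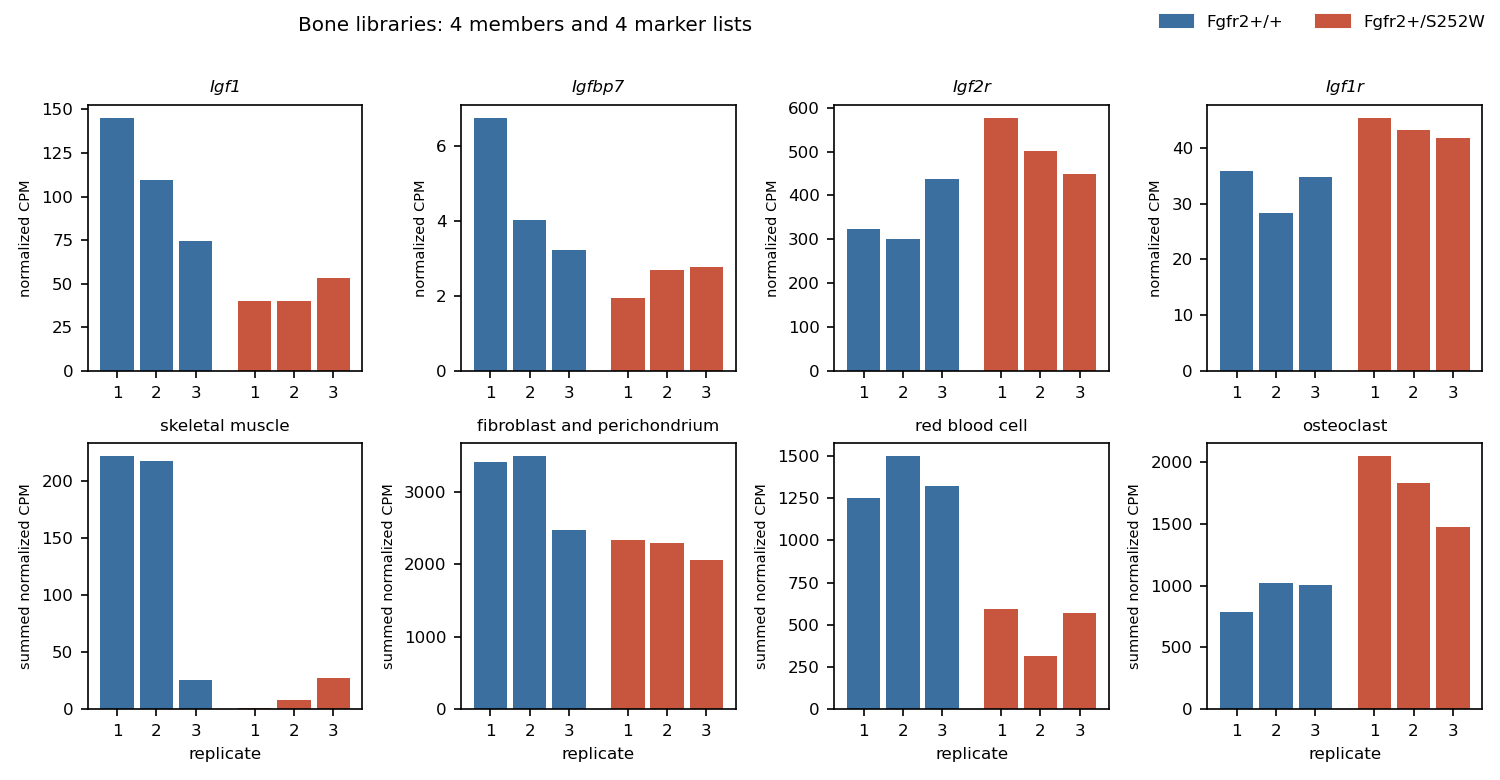
Normalized CPM of Igf1, Igfbp7, Igf2r and Igf1r (top) and summed normalized CPM of 4 marker lists (bottom) in the 6 bone libraries (x axis, replicate within genotype, bars from 0). Igf1 and Igfbp7 are higher in the Fgfr2+/+ libraries along with the muscle, fibroblast and red blood cell sums, although the muscle sum of Fgfr2+/+ replicate 3 is no higher than that of Fgfr2+/S252W replicate 3, and Igf2r and Igf1r are higher in Fgfr2+/S252W along with the osteoclast sum.

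In MC, 0 of 8 members and 0% of all genes were called by limma. Unadjusted p was below 0.05 for 1 member and 1761 genes, and 90 genes were called by edgeR and 417 by DESeq2, none of them a member. No member separated the genotypes, where 13.4% of all genes did. The member with the smallest p was Igfbp2, at 2.19 ± 0.77 (95% interval 0.59 to 3.80, adjusted p = 0.195), and this value rested on Fgfr2+/+ replicate 1. Without that library it was -0.09. With all libraries it was 0.51 by edgeR, 0.50 by DESeq2, 0.84 with the replicate block and 1.14 with sample quality weights, and it was called in none of them. Igf1 was at 0.79 ± 0.52 (-0.30 to 1.88, adjusted p = 0.482), and at 0.15 without the same library. The macrophage markers summed to 36.3 to 72.3 CPM in Fgfr2+/+ and 81.6 to 130.1 CPM in Fgfr2+/S252W MC, with 3 of 7 higher in every Fgfr2+/S252W library. The osteoclast markers summed to 82.7 to 213.6 against 57.0 to 67.0 CPM, with 2 of 6 lower in every Fgfr2+/S252W library, and 2 of the 6 fibroblast and perichondrium markers, Ptn and Mfap4, were higher in every one. The part of these markers in the values of the members was not tested. Igfbp4, Igfbp5, Igfbp7 and Igf2r lay between 0.16 and 0.31, of which Igfbp4 and Igfbp5 fell to 0.014 and 0.019 without Fgfr2+/+ replicate 1, and Igf1r and Igfbp3 were at -0.11 ± 0.21 and -0.18 ± 0.25. Over the fits that left out 1 library, Igf1r ranged from -0.17 to -0.020, Igf2r from 0.10 to 0.23 and Igfbp7 from 0.16 to 0.34, and none was called.

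In condylar cartilage, 0 of 8 members and 0% of all genes were called by limma. Unadjusted p was below 0.05 for 1 member and 351 genes, and 0 genes were called by edgeR and 3 by DESeq2. Igf2r was the member with the smallest p, at 458.5, 346.2 and 457.3 CPM in Fgfr2+/+ and 583.2, 524.1 and 581.2 CPM in Fgfr2+/S252W (0.43 ± 0.15, 95% interval 0.11 to 0.75, adjusted p = 0.998). The libraries did not overlap for Igf2r and Igfbp2, 2 of 8 members, where 9.77% of all genes did not overlap and 4.59% were higher in Fgfr2+/S252W. Igfbp2 rested on 1 to 8 fragments per library, and Igf1, Igfbp2 and Igfbp3 did not pass the filter in the 6 condylar libraries alone. Igf1 was at -2.30 ± 1.70 (95% interval -5.85 to 1.25). It was at -0.80 without Fgfr2+/+ replicate 3, at -1.08 without Fgfr2+/S252W replicate 1 and at -4.11 without Fgfr2+/+ replicate 1, and at -3.44 by edgeR and -3.43 by DESeq2, where it was not called either. Igf1r at -0.08 ± 0.17, Igfbp3 at -0.83 ± 0.50, Igfbp4 at -0.17 ± 0.52, Igfbp5 at 0.15 ± 0.29 and Igfbp7 at -0.51 ± 0.33 overlapped between the genotypes, and Igfbp4 was at 0.61 without Fgfr2+/+ replicate 3. Leaving out 1 library moved Igfbp3 between -1.39 without Fgfr2+/+ replicate 2 and -0.51 without Fgfr2+/+ replicate 1, and Igfbp7 between -0.70 without Fgfr2+/+ replicate 1 and -0.27 without Fgfr2+/+ replicate 3. The summed levels of the osteoclast, macrophage, skeletal muscle and fibroblast markers overlapped between the genotypes. Of single markers, 2 of 6 for skeletal muscle, Tnnt3 and Mylpf, 1 of 7 for macrophages, C1qb, and 1 of 6 for endothelium, Pecam1, were lower in every Fgfr2+/S252W library, and 1 of 6 for fibroblasts and perichondrium, Col3a1, was higher. Their part in the values of the members was not tested.

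Igfbp6, which did not pass the filter, had its largest difference in condylar cartilage. It was counted in 20, 8 and 10 fragments in Fgfr2+/+ and in 0, 1 and 0 fragments in Fgfr2+/S252W condylar cartilage, 38 against 1 in all. Corrected for depth this is a ratio of 35.9 with a 95% exact interval of 6.06 to 1453 that covers counting error only. In limma without the expression filter the log2 fold change was -3.90 ± 0.67 (adjusted p = 0.157), with the second smallest p of that comparison. In bone the fragments were 5 against 5 and in MC 11 against 5, with intervals of the ratio from 0.302 to 5.71 and from 0.583 to 6.68.

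The difference of the genotype effect between tissues was tested as an interaction, with 0 of 8 members called in each of the 3 pairs of tissues. Of all genes, 0.0349% were called between bone and MC, and 0% in each of the other pairs, where the unadjusted p was below 0.05 for 221 genes between bone and condylar cartilage and 904 between condylar cartilage and MC, edgeR called 0 and 0, and DESeq2 called 2 and 40. Igf1 had the largest member value between bone and MC, at -1.90 ± 0.72 (95% interval -3.42 to -0.38, limma adjusted p = 0.46), and at -1.08 without Fgfr2+/+ bone replicate 1 and -2.70 without Fgfr2+/+ bone replicate 3. Between condylar cartilage and MC it was at -3.68 ± 1.59 (adjusted p = 0.595), and from -4.78 without Fgfr2+/S252W condylar replicate 2 to -1.73 without Fgfr2+/+ condylar replicate 3. Igfbp7 was at -1.09 ± 0.46 between bone and MC (adjusted p = 0.499), at -0.65 without Fgfr2+/+ bone replicate 1 and at -1.54 without Fgfr2+/+ bone replicate 3.

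Of the other genes of the pathway, 41 were listed and 32 passed the filter. Of these, 24 were called between bone and MC, 10 higher and 14 lower in bone, where 49.3% of all genes were called. Between bone and condylar cartilage 18 were called, 6 higher and 12 lower, against 41.3% of all genes, and between condylar cartilage and MC 24, 12 higher and 12 lower, against 54.4%. Between the genotypes 0 of 32 were called in each tissue. In bone 3 of 32 had an unadjusted p below 0.05, against 8.13% of all genes. They were Pik3cb, Foxo3 and Insr, which were picked after their values were seen and were all higher in Fgfr2+/S252W (0.85 ± 0.20, 0.58 ± 0.22 and 0.40 ± 0.16, limma adjusted p = 0.136, 0.501 and 0.536).

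Igf2, the other ligand gene, was far more abundant per length than Igf1 and shared its peak in MC. It had a median of 1135 FPKM in MC, 778.4 FPKM in condylar cartilage and 415.9 FPKM in bone, where median Igf1 was 85.4, 0.269 and 6.44 FPKM. Igf2 was lower in bone than in MC (log2 -1.36 ± 0.14, limma adjusted p = 6.93e-07) and, unlike Igf1, lower in bone than in condylar cartilage (-0.77 ± 0.14, adjusted p = 0.000225). Insr, the insulin receptor, was higher in condylar cartilage than in MC by 0.67 ± 0.13 (adjusted p = 0.000274), the direction of Igf1r. Irs1, the docking protein of both receptors, was lower in bone than in MC (-1.63 ± 0.17, adjusted p = 7.81e-07) and than in condylar cartilage (-1.97 ± 0.16, adjusted p = 4.63e-08).

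Of the 5 listed genes of the growth hormone signal, which drives Igf1 in liver, 4 passed the filter. By limma 3 of the 4 were higher and 1 was lower in bone than in MC, and likewise in condylar cartilage than in MC, beside the shares of all genes given above. None of the 4 was called between bone and condylar cartilage, where 1 had an unadjusted p below 0.05. Ghr, the growth hormone receptor, was higher in bone than in MC by 1.63 ± 0.23 (adjusted p = 2.64e-05) and higher in condylar cartilage than in MC by 1.11 ± 0.24 (adjusted p = 0.000841), and its kinase gene Jak2 was higher by 1.17 ± 0.14 and 1.32 ± 0.15 in the same comparisons, while Stat5b was lower in bone than in MC (-1.30 ± 0.19). Stc1, an inhibitor of the IGFBP proteases, passed the test in no tissue comparison (adjusted p = 0.818, 0.853 and 0.687). Pappa and Stc2 did not pass the filter, at medians of 0.491, 1.03 and 0.469 FPKM and of 0.569, 0.0444 and 6.71 FPKM in bone, MC and condylar cartilage. Pappa2, a protease of IGFBP3 and IGFBP5 that did not pass the filter either and was named after its values were seen, was at 57.0 to 242.9 CPM in MC, 3.53 to 26.2 CPM in bone and 0 to 6.32 CPM in condylar cartilage.

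Further pathway genes were called most clearly between the tissues. Adam12, which cleaves IGFBP3 and IGFBP5, was higher in bone than in MC by 1.60 ± 0.18 and than in condylar cartilage by 1.74 ± 0.19 (adjusted p = 2.69e-06 and 1.08e-06), and Htra1, a serine protease that cleaves IGFBP5, was lower in condylar cartilage than in MC (-2.56 ± 0.30). Pik3r1, the regulatory subunit of PI3K, was lower in condylar cartilage than in MC (-2.27 ± 0.17) and higher in bone than in condylar cartilage by 2.11 ± 0.16. Rps6kb1, a kinase downstream of mTOR, was higher in condylar cartilage than in MC by 2.61 ± 0.19. Foxo4 and Gab1 were lower in bone than in condylar cartilage (-2.99 ± 0.25 and -1.09 ± 0.14), and Tsc1 was lower in bone than in MC (-0.98 ± 0.14).

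Over the 18 libraries, which share tissue and embryo, the genes with the pattern most like Igf1 in log2(CPM + 0.5) were Sfrp2, Fmo1 and Kif18b (Pearson r 0.987, 0.985 and 0.983). For Igfbp4 they were Nfib, Plxdc2 and Nfatc4 (0.984, 0.983 and 0.982), for Igfbp5 Pcsk5, Svil and Mpdz (0.980, 0.978 and 0.978), and for Igf1r Nid2, Sun1 and Capn6 (0.966, 0.965 and 0.965). Igfbp3 was most like Vash2, Thbd and Abcc9 (0.971, 0.967 and 0.966), and Igfbp2 most like Clu, Cd47 and Pld2 (0.970, 0.961 and 0.960). Igf2r had the weakest match, with Mrtfb, App and Plxnb2 at 0.826, 0.823 and 0.802. Igfbp7 was most like Tgfb3 (0.969), followed by Lars2 and Rpph1 (0.948 and 0.948). The order of the tissues for Igfbp7 was also that of Gm42418, an annotated transcript that took 24.1% to 39.4% of the fragments in MC, 10.9% to 20.2% in condylar cartilage and 5.58% to 9.33% in bone. Its part in the levels of Igfbp7 was not tested.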

How the data were processed

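RNA from laser-captured bone, Meckel's cartilage (MC) and condylar cartilage of 6 embryos was amplified before library preparation and sequenced in read pairs. Per the labels and the study's methods, reads were trimmed with cutadapt, aligned to mm10 with STAR and counted per gene over exons with featureCounts v1.5.0-p1 without regard to strand, and the submitters' processing notes also name limma and RSEM. The deposited values are raw counts of fragments per gene, with 8218548 to 15585778 per library, and intervals on counts cover counting error only.

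The 38243 genes were filtered to the 11469 with more than 1 FPKM in at least 50% of libraries and scaled by TMM (edgeR 4.0.16). They were tested with voom and limma 3.58.1 in R 4.3.3, with Benjamini-Hochberg adjustment over all genes tested and a threshold of 0.05. Genotypes were compared with 1 mean for each of 6 groups. Tissues and interactions had the embryo as a block, because the 3 tissues came from the same 6 embryos according to the study. The deviations of the tissues of an embryo had a mean correlation of 0.00012 (-0.089 to 0.106). Scripts were tested on simulated data.

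The text names all 9 members, Igf2, Insr, Pappa, Stc1, Stc2, Irs1 and Ghr, up to 4 further pathway genes per comparison with the smallest adjusted p among those called, and the 3 genes most like each member. The members, lists and rules were chosen with earlier results of these data known. Alternatives were edgeR, DESeq2 1.42.0, other scaling, filters, weights, blocks and subsets, and leaving out each library. Leaving out libraries from fits of 1 tissue was added after seeing the data, except for Fgfr2+/+ bone replicate 3, which was planned.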

Additional observations from a re-analysis of the deposited data

How the results depend on the processing

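The count of members called was within 1.5 times the reported count in every comparison and alternative other than the genotype comparison in bone. There it rose from 0 to 1 with the 6 bone libraries alone, to 1 with those libraries and the replicate block, and to 2 with sample quality weights. Leaving out 1 library at a time gave 0 to 1 in the fit of all libraries and 0 to 4 in the fit of the 6 bone libraries, where a group is left with 2. The cause was not tested.

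Between the genotypes, same-numbered deviations had mean correlations of 0.091 for bone, -0.102 for MC and 0.145 for condylar cartilage. The same measure was 0.00012 between the tissues of an embryo, which are known to be paired. It therefore cannot tell whether the replicate numbers pair the samples. With the replicate block in the fit of all libraries, the smallest limma adjusted p of a member was 0.251 in bone and 0.254 in MC, both for Igf1. In condylar cartilage it was 0.9995 for every member tested.

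Values that changed sign were all of differences that did not pass the test. Igf2r for bone against MC was 0.038 in Fgfr2+/S252W embryos alone and 0.023 without a filter, Igf2r for condylar cartilage against MC was -0.089 in Fgfr2+/+ embryos alone, and Igfbp3 for bone against MC was -0.016 in Fgfr2+/+ embryos alone. Between genotypes, Igfbp2 in bone was 0.027 and Igfbp4 in condylar cartilage 0.373 with quality weights, and Igfbp3 in bone was 0.034 without a filter. In the fit of all libraries with 1 left out, Igf1r in condylar cartilage ranged from -0.254 to 0.134, Igfbp4 there from -0.736 to 0.605 and Igfbp5 there from -0.155 to 0.384. Igfbp2 ranged from -0.0896 to 3.19 in MC and from -0.386 to 0.161 in bone, and Igfbp3 from -0.281 to 0.0548 in MC and from -0.152 to 0.0623 in bone. Igfbp3 for bone against MC ranged from -0.0662 to 0.135 and Igf2r for condylar cartilage against MC from -0.0168 to 0.128. In fits of 1 tissue with 1 library left out, the reversed values were 0.0218 and 0.140 for Igf1r, 0.0646 and 0.613 for Igfbp4 and -0.148 for Igfbp5 in condylar cartilage, -0.0867 for Igfbp2 and 0.00579 and 0.0515 for Igfbp3 in MC, and 0.0412 and 0.151 for Igfbp2 and 0.00741 and 0.0567 for Igfbp3 in bone. Counts of a few fragments limit Igfbp2 and Igfbp6, and Igf1 in condylar cartilage.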
